A study of Homo sapiens with 6 samples.

Results

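The MEF2 family comprises the 4 human genes MEF2A, MEF2B, MEF2C and MEF2D, and all 4 were found by symbol among the 23459 gene rows and passed the filter on low counts. They were examined in Raji, an established line from a Burkitt's lymphoma that carries Epstein-Barr virus and stems from a germinal centre B cell. The control cells carried SHC002, a non-target shRNA, and the other cells OBF1sh1, a shRNA specific for OBF1. Both groups were infected with lentivirus for 5 days and selected with puromycin at 3 μg/ml for 7 days, so both consist of Raji cells with an integrated pLKO.1 vector. Each group had 3 RNA-seq libraries, and the effect of OBF1 was represented by 1 hairpin in 1 line. OBF1, the product of POU2AF1, is a B cell coactivator that joins the Oct factors on DNA. Nothing in the labels tells whether replicate libraries come from separate cultures, so p-values refer to a spread that may be technical.

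MEF2 proteins are transcription factors that bind an A/T-rich element as dimers through a MADS box at the N terminus and the MEF2 domain next to it. They hold class IIa histone deacetylases at their targets when repressed, and exchange them for acetyltransferases when calcium or MAP kinase signals arrive. MEF2B is the paralog most characteristic of germinal centre B cells, where it activates BCL6 and is recurrently mutated in lymphoma. MEF2C serves B cell proliferation after receptor signalling, and MEF2A and MEF2D are expressed in many tissues.

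Total counts ranged from 29569281 to 32612429 per library. The targeted POU2AF1 transcript fell 2.12-fold (log2 fold change -1.09, SE 0.02, edgeR adjusted p = 1.25e-17). Of the genes of its Oct partners, POU2F1 fell from 63.0 to 52.8 CPM and POU2F2 rose from 121 to 303 CPM. The B cell markers MS4A1, CD79A, CD79B, PAX5, CD22 and EBF1 were all detected, with 5 of the 6 called higher and CD79B lower, beside 37.5% higher and 37.9% lower over all tested genes. The call of CD79A was lost with library sizes alone (edgeR adjusted p = 0.318). The 6 markers summed to 2279 to 2343 CPM in control and 3884 to 3923 CPM in OBF1 shRNA libraries. The rise in this sum lay mostly in MS4A1, whose mean went from 702 to 2078 CPM. CD79A went from 547.7 to 603 CPM and CD79B from 663.7 to 609.5 CPM. Of the 10 myeloid markers, 3 were tested, with ITGAM higher, LYZ lower and CSF1R not called; all 10 summed to between 2.31 and 2.44 CPM in control and between 2.08 and 2.33 CPM in OBF1 shRNA libraries, with MPO and S100A9 at 0 counts in every library. The 7 T cell markers summed to between 0 and 0.0320 CPM in control and between 0 and 0.192 CPM in OBF1 shRNA libraries, with none tested and CD3D, CD2, CD5 and CD7 at 0 counts.

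MEF2B, MEF2C and MEF2D were compared in sequence, which bears on whether reads can be assigned to 1 of them; MEF2A was not compared here. Their first 171 coding bases were 80.1% to 82.5% identical between pairs. Over all GENCODE 29 transcripts the longest run of bases identical between genes was 20 for MEF2C and MEF2D, 18 for MEF2B and MEF2D, and 17 for MEF2B and MEF2C. For read length and for reads with several matches, the sources used here give nothing.

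The region upstream of MEF2B is shown because it holds the octamer, the element to which Oct factors and OBF1 bind. The 250 bases before the annotated start of MEF2B are given from RefSeq (GRCh38.p14, chr19:19170264-19170513, minus strand), 5′ to 3′, with the octamer in capitals.
MEF2B upstream: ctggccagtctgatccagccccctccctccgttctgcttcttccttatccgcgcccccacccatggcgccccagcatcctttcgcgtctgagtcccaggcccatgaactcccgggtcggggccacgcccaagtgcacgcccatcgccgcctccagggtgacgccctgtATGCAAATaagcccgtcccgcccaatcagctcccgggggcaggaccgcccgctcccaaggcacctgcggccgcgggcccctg
The match began 82 bases before the start, on the strand of the gene. RefSeq lists 7 starts for MEF2C, and the window of 1 of these held the octamer on the opposite strand, beginning 60 bases before the start (GRCh38.p14, chr5:88824345-88824594, minus strand, octamer in capitals).
MEF2C upstream: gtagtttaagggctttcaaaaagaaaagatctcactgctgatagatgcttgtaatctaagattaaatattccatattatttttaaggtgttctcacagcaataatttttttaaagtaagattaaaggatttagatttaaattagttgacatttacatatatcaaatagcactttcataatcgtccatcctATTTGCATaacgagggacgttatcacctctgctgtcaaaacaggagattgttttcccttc
The letters searched were ATGCAAAT, on both strands and with exact match, in windows from 250 bases before to 50 bases after each start. None of the 3 windows of MEF2A and the single window of MEF2D held them. Of 35116 such windows in the RefSeq table, 623 (1.77%) held the octamer. The MEF2 element itself was found in 1 window of MEF2A, 1 of MEF2C and in 2.99% of all windows. These matches describe the letters and say nothing of binding, which was not measured, nor of which start is used in Raji.

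MEF2B was the most abundant paralog per length in control cells and fell with the OBF1 hairpin, while MEF2C and MEF2D rose and MEF2A was nearly level. All 4 were called, 2 higher and 2 lower, at an edgeR quasi-likelihood p under 0.05 after Benjamini-Hochberg adjustment. Among all 12010 tested genes 75.4% were called, 37.5% as higher and 37.9% as lower, so a count of 4 calls did not set the family apart. The libraries of the groups did not overlap for any of the 4 members, and they did not overlap for 76.6% of all tested genes. By size of log2 fold change, 12.4% of tested genes exceeded MEF2C, 14.9% exceeded MEF2B, 24.3% exceeded MEF2D and 85.5% exceeded MEF2A.

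MEF2B, the activator of BCL6, held 153, 162 and 144 CPM, the read count scaled to a common TMM-adjusted library size, in the control libraries and 85.8, 82.5 and 90.6 CPM in the OBF1 shRNA libraries. The lowest control library lay well above the highest OBF1 shRNA library. This was a 1.77-fold fall (log2 fold change -0.82, SE 0.04, edgeR adjusted p = 3.77e-12). MEF2B also varied most between replicates: its coefficient of variation was 6.11% in control and 4.70% in OBF1 shRNA libraries, against 1.43% and 1.96% from counting alone. In these bulk libraries fewer cells with the transcript and less transcript per cell cannot be told apart.

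MEF2C, the paralog tied to B cell receptor signalling, stood at 77.0, 75.6 and 78.1 CPM in control and at 143, 150 and 146 CPM in OBF1 shRNA libraries. Every OBF1 shRNA library was far above every control library, and the gene rose 1.91-fold (log2 fold change 0.93, SE 0.03, edgeR adjusted p = 6.60e-15). MEF2D, a widely expressed paralog, moved the same way at 61.7, 63.6 and 63.4 CPM in control and 93.6, 93.1 and 94.9 CPM in OBF1 shRNA libraries. Its libraries were tightly grouped, and it rose 1.49-fold (log2 fold change 0.58, SE 0.03, edgeR adjusted p = 1.51e-11). A test against 1.5-fold instead of no change kept the calls of MEF2B and MEF2C but not that of MEF2D.

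MEF2A, the other widely expressed member, held 112, 105 and 110 CPM in control and 101, 104 and 104 CPM in OBF1 shRNA libraries. The groups barely missed each other, with control replicate 2 at 104.8 CPM next to OBF1 shRNA replicate 2 at 104.4 CPM. The gene was called lower, by 0.08 on the log2 scale (log2 fold change -0.08, SE 0.03, edgeR adjusted p = 0.0372). This call was lost in 8 of 15 alternative analyses. It was lost without control replicate 1 (edgeR adjusted p = 0.173), control replicate 3 (0.150), OBF1 shRNA replicate 1 (0.131) or OBF1 shRNA replicate 3 (0.0701). DESeq2 did not call it either (adjusted p = 0.0845), so MEF2A is best read from its values. Library sizes alone gave a larger log2 fold change of -0.19.

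**Figure D1:**
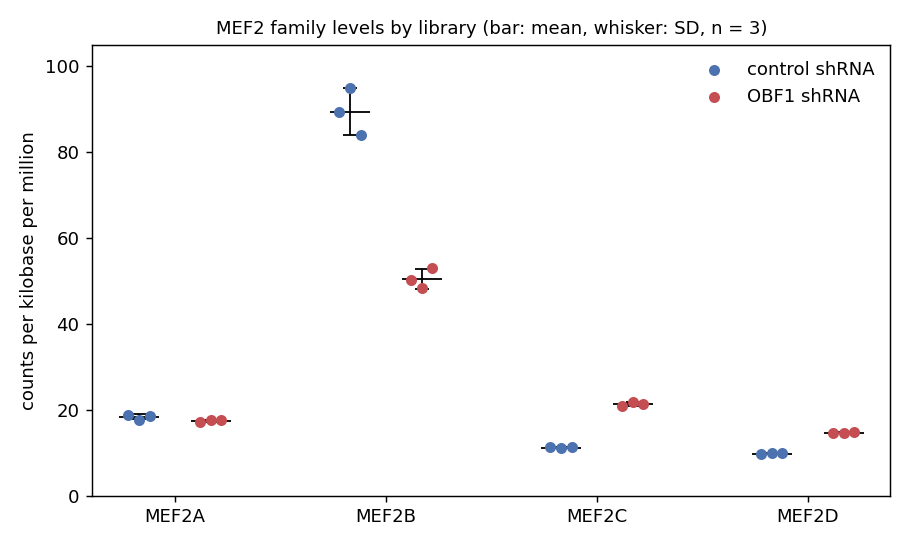
Level of each MEF2 gene in CPM per kilobase (y axis) for 3 control shRNA and 3 OBF1 shRNA libraries, with points for libraries, bars for means and whiskers for SD. MEF2B falls from 89.4 to 50.5, MEF2C climbs from 11.2 to 21.3 past MEF2A, and MEF2A stays between 17.1 and 18.9.

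Levels were compared between genes after division by the gene length in the table. In control libraries MEF2B held 89.4 ± 5.46 CPM per kilobase (SD, n = 3), MEF2A 18.4 ± 0.626, MEF2C 11.2 ± 0.184 and MEF2D 9.81 ± 0.165. Neighbours in this order did not overlap between libraries. In OBF1 shRNA libraries the order became MEF2B at 50.5 ± 2.37, MEF2C at 21.3 ± 0.517, MEF2A at 17.4 ± 0.278 and MEF2D at 14.7 ± 0.144 (SD, n = 3), again without overlap, and MEF2C and MEF2A had changed places. MEF2B has the shortest row, 1710 bases against 5927 for MEF2A, 6864 for MEF2C and 6409 for MEF2D, so its lead per length rests on those lengths. By CPM alone MEF2B led in control libraries and was the lowest of the 4 in OBF1 shRNA libraries, where MEF2C led.

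MEF2B made up less of the family total in the OBF1 shRNA libraries, and MEF2C and MEF2D more. Per length, MEF2B accounted for 69.2%, 71.1% and 67.8% of the family total in the control libraries and for 48.8%, 47.2% and 49.7% in the OBF1 shRNA libraries. This was a change of -20.8 percentage points, and MEF2B was the largest of the 4 in every library. MEF2C went from 8.71% ± 0.469 to 20.6% ± 0.758 and MEF2D from 7.62% ± 0.312 to 14.1% ± 0.183 (SD, n = 3). MEF2A went from 14.3% ± 0.942 to 16.8% ± 0.396 (SD, n = 3). All 4 shares separated the groups completely, which gives p = 0.1 in an exact two-sided permutation test, the smallest value that 3 libraries against 3 allow, and 0.1 after adjustment over the 4 shares. Shares are parts of 1 total, so a fall in 1 raises the others and the 4 are not separate results. The MEF2A share rose although its level went from 18.4 to 17.4 CPM per kilobase. By level, the groups did not overlap for 76.6% of all tested genes.

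From counts not divided by length, MEF2B went from 38.04% ± 1.83 to 20.1% ± 0.827 of the family (SD, n = 3). MEF2C then took over as the largest share, going from 19.2% ± 0.571 to 34.1% ± 0.747 (SD, n = 3). MEF2D went from 15.7% to 21.8%. On this scale MEF2A moved the other way, from 27.1% ± 1.18 to 24.0% ± 0.212 (SD, n = 3), so the direction of its share depends on whether length is taken into account.

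**Figure D2:**
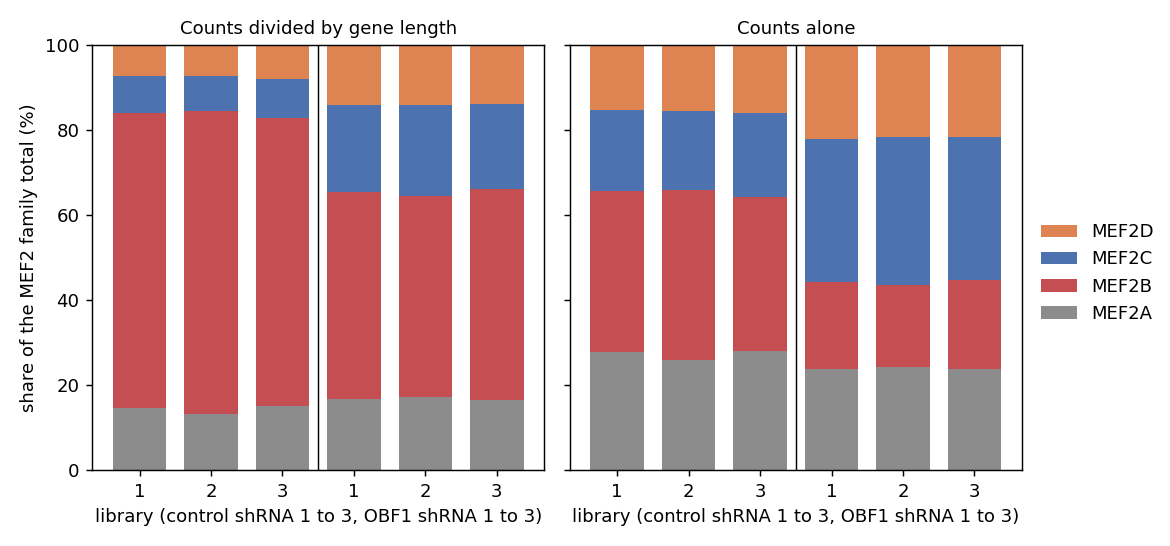
Share of each MEF2 gene in the family total (y axis, percent) in each of the 6 libraries, from counts divided by gene length on the left and from counts alone on the right. The MEF2B segment shrinks from 69.4% to 48.6% on average per length, and the MEF2C and MEF2D segments widen in all 3 OBF1 shRNA libraries on both scales.

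The family total also depended on that choice. Per length the 4 genes summed to 129, 134 and 124 CPM per kilobase in control and to 103, 102 and 107 in OBF1 shRNA libraries, a change of -19.4%. By CPM, where the long transcripts of MEF2C and MEF2D weigh more, the sum went from 402 ± 5.48 to 430 ± 5.72 (SD, n = 3), a change of 7.03%. Without MEF2B the per-length sum of the other three went from 39.4 ± 0.694 to 53.4 ± 0.754 (SD, n = 3). Each of these totals separated the groups (exact two-sided permutation p = 0.1, the smallest possible), as the levels of 76.6% of all tested genes did.

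Ratios between paralogs within a library do not depend on how libraries are scaled, and all 6 pairs were examined. MEF2B exceeded MEF2C 7.97-fold per length in control and 2.36-fold in OBF1 shRNA libraries. The log2 ratios were 2.99, 3.11 and 2.88 in control and 1.27, 1.14 and 1.32 in OBF1 shRNA libraries, a 3.37-fold change that was the largest of the 6. The ratio of MEF2B to MEF2D changed 2.64-fold, from 9.10 to 3.44. MEF2A to MEF2C crossed equality, from a ratio of 1.64 to 0.816. MEF2C and MEF2D, which both rose, changed least against each other, with their ratio going from 1.14 to 1.46. The log2 ratios of MEF2C to MEF2D were 0.22, 0.15 and 0.20 in control and 0.51, 0.59 and 0.52 in OBF1 shRNA libraries. The groups did not overlap for any pair (exact two-sided permutation p = 0.1 for each, and 0.1 after adjustment over the 6 pairs). Levels of single genes did not overlap for 76.6% of all tested genes, and ratios between other genes were not examined. Each member enters several pairs, so the 6 are not separate results and do not set the family apart.

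**Figure D3:**
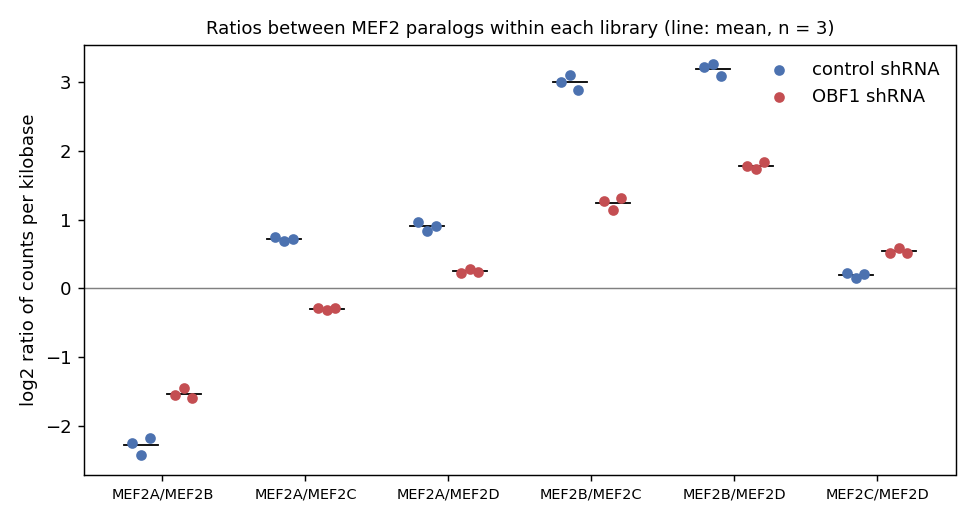
Log2 ratio of counts per kilobase between each pair of MEF2 genes (y axis) in 3 control shRNA and 3 OBF1 shRNA libraries, with a line at each mean. MEF2B/MEF2C goes from a mean of 2.99 to 1.24, and MEF2A/MEF2C passes from above 0 to below 0.

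MEF2B lies downstream of BORCS8, a subunit of the complex that positions lysosomes, and an annotated readthrough gene, BORCS8-MEF2B, joins them. The readthrough row held 4769, 5471 and 4546 counts in control and 2563, 2645 and 2979 counts in OBF1 shRNA libraries. MEF2B held 4770, 5452 and 4524, then 2439, 2515 and 2838 counts. The ratio of the rows lay between 0.9998 and 1.05 in all 6 libraries, so the rows cannot be read as separate measurements, and MEF2B and readthrough transcripts cannot be told apart here. BORCS8-MEF2B was called lower by nearly the same amount (log2 fold change -0.76, SE 0.04, edgeR adjusted p = 1.09e-11).

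BORCS8 itself moved opposite to MEF2B. It held 372, 412 and 351 counts in control and 629, 641 and 645 in OBF1 shRNA libraries. The groups did not overlap, as for 76.6% of all tested genes, and BORCS8 rose 1.80-fold (log2 fold change 0.85, SE 0.06, edgeR adjusted p = 5.19e-10). The readthrough row exceeded the MEF2B row by -1, 19 and 22 counts in control and by 124, 130 and 141 counts in OBF1 shRNA libraries. This excess was higher in all OBF1 shRNA libraries, as BORCS8 was, but not in proportion. It equalled -0.27%, 4.61% and 6.27% of BORCS8 counts in control and 19.7%, 20.3% and 21.9% in OBF1 shRNA libraries. For MEF2C-AS1 and MEF2C-AS2, antisense to MEF2C, no row was found among the gene rows. Since the strand setting of the counting is not given, their reads and those of MEF2C may not have been kept apart.

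**Figure D4:**
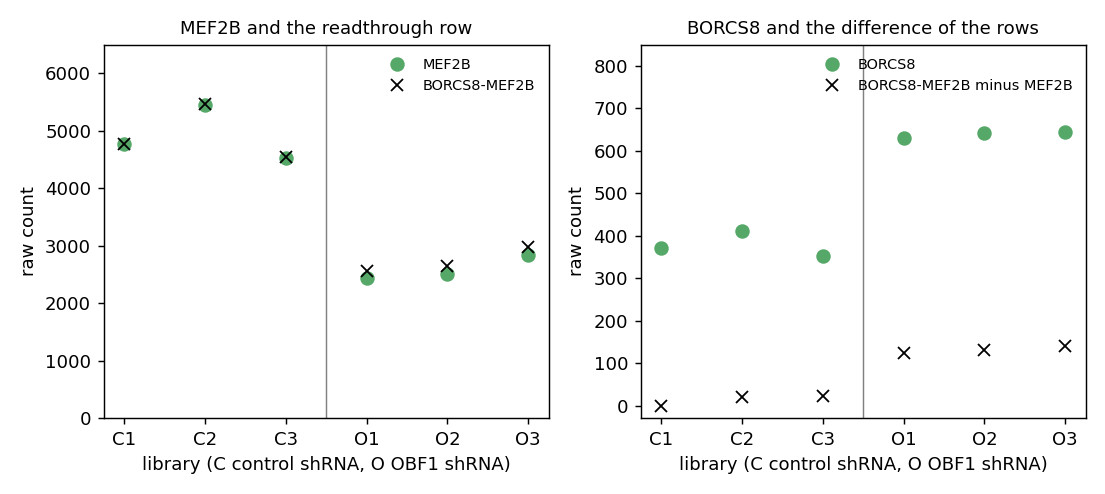
Raw counts (y axis) of the MEF2B and BORCS8-MEF2B rows on the left, and of BORCS8 and the difference between those rows on the right, in each library (C control shRNA, O OBF1 shRNA). Crosses of BORCS8-MEF2B sit on the MEF2B points in control libraries and slightly above them in OBF1 shRNA libraries, while BORCS8 climbs from 351 to 412 counts to 629 to 645 counts.

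SRF, the MADS-box factor outside the MEF2 family, rose less than MEF2C or MEF2D, from 101 ± 1.51 to 125 ± 3.18 CPM (SD, n = 3, log2 fold change 0.31, SE 0.03, edgeR adjusted p = 4.42e-08). Genes whose profile over the 6 libraries lay closest to each member were found among 9606 genes with a symbol and a mean of at least 5 CPM, by Euclidean distance of mean-centred log2 CPM. RAB5B, a small GTPase gene of early endosomes, lay closest to MEF2C at a distance of 0.03, followed by CLIP1 and SWAP70. The row of BORCS8-MEF2B lay closest to MEF2B at 0.08, followed by SMTN and CDADC1. SMAP2, FLII and ARPC3 lay closest to MEF2D, and SRSF6, ZNF226 and NXF1 to MEF2A. With 6 libraries in 2 groups these distances mainly match the size of the change and the spread.

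Co-repressors of MEF2 factors divided into 3 higher and 3 lower of 7 tested, beside 37.5% higher and 37.9% lower over all tested genes. Their median log2 fold change was 0.02 against -0.01 over all tested genes. Among the class IIa deacetylases, which bind MEF2 proteins directly, the 4 genes did not move together. HDAC7 was by far the most abundant by CPM, at 166 ± 0.483 in control and 168 ± 2.18 in OBF1 shRNA libraries (SD, n = 3), and did not pass the test (edgeR adjusted p = 0.554). HDAC5 fell from 26.9 to 18.6 CPM and HDAC4 from 24.6 to 20.6 CPM. HDAC9, itself a known MEF2 target, held 0.864, 1.31 and 0.984 CPM in control and 6.33, 6.04 and 4.85 CPM in OBF1 shRNA libraries. It rose 5.39-fold from a low level (log2 fold change 2.43, SE 0.16, edgeR adjusted p = 1.73e-10). HDAC3 and NCOR1, of the co-repressor complex that class IIa enzymes recruit, were each higher, by 0.15 and 0.14 on the log2 scale. CABIN1, a repressor that also inhibits calcineurin, was lower, at a log2 fold change of -0.11. With library sizes alone HDAC3 and NCOR1 lost their calls and HDAC7 was called lower, which gives 1 higher and 4 lower.

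Co-activators went both ways. Of 7 tested, 4 rose (3 with library sizes alone) and 3 fell, beside 37.5% higher and 37.9% lower over all tested genes. Their median log2 fold change was 0.12. The related acetyltransferases EP300 and CREBBP both fell, and the groups did not overlap for either, as for 76.6% of all tested genes. EP300 held 217, 208 and 212 CPM in control and 155, 164 and 152 CPM in OBF1 shRNA libraries. CREBBP held 177, 180 and 179 CPM, then 126, 129 and 130 CPM (log2 fold change -0.47, SE 0.03, edgeR adjusted p = 1.81e-11). NCOA2, a nuclear receptor coactivator that also joins MEF2C, fell from 62.5 to 48.2 CPM. KAT2B, the acetyltransferase PCAF, went the other way, from 30.7, 32.2 and 32.7 CPM to 50.5, 50.3 and 48.4 CPM. CARM1, an arginine methyltransferase, rose from 180 to 224 CPM and SMARCA4, the chromatin remodelling ATPase BRG1, from 490 to 566 CPM.

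Calcium signalling genes upstream of MEF2 divided evenly, with 5 higher and 5 lower of 12 tested. Over all tested genes 37.5% were called higher and 37.9% lower. The median log2 fold change of the list was -0.05. The subunits of calcineurin, the phosphatase that activates MEF2 factors, differed in direction. The catalytic subunit gene PPP3CA fell by 0.37 on the log2 scale and the regulatory PPP3R1 by 0.33. PPP3CB rose by 0.31 and PPP3CC by 0.48 on that scale. CALM3, 1 of 3 calmodulin genes, rose from 240 to 381 CPM (log2 fold change 0.66, SE 0.03, edgeR adjusted p = 7.76e-14). PRKD3, a kinase of the family that exports class IIa deacetylases from the nucleus, fell by 0.21 on the log2 scale. CAMK2G and PRKD2 did not pass the test. CAMK2D, chosen for mention once its values were known, counted among the 5 higher (edgeR adjusted p = 0.038). That call did not hold with DESeq2 (adjusted p = 0.0661), without control replicate 1 (edgeR adjusted p = 0.151) or without OBF1 shRNA replicate 1 (0.180). With library sizes alone the CAMK2D call was lost while CAMK2G and PRKD2 were called lower, which gives 4 higher and 7 lower. RCAN1, CAMK1, CAMK4 and PRKD1 did not pass the count filter, with at most 0.623 CPM in any library.

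Of 9 tested genes of the p38 and ERK5 kinase arms, which phosphorylate MEF2 factors, 6 rose and 2 fell, beside 37.5% higher and 37.9% lower over all tested genes. The median log2 fold change was 0.29. All 5 tested p38 genes, MAPK14, MAPK12, MAPK13, MAP2K3 and MAP2K6, were higher. Of the 4 ERK5 genes, MAP2K5, named once its values were known, was higher (log2 fold change 0.32), MAPK7 and MAP3K2 were lower and MAP3K3 was not called. MAP2K6, an activating kinase of p38, held 1.60, 1.88 and 1.90 CPM in control and 14.04, 15.5 and 15.6 CPM in OBF1 shRNA libraries. This 8.38-fold rise was the largest among the pathway lists (log2 fold change 3.07, SE 0.10, edgeR adjusted p = 4.52e-15). MAPK13, the p38 delta gene, rose from 1.04 ± 0.209 to 6.68 ± 0.645 CPM (SD, n = 3). MAPK14, the abundant p38 alpha gene, rose only from 73.4 ± 1.49 to 93.3 ± 1.78 CPM (SD, n = 3). The p38 kinase gene MAPK12 rose by 0.26 and MAP2K3 by 0.29 on the log2 scale, and MAP3K2, upstream of ERK5, fell by 0.29. MAP3K3 did not pass (edgeR adjusted p = 0.205). MAPK7, the ERK5 gene, also chosen once its values were known, was called lower (edgeR adjusted p = 0.044). Its call did not survive leaving out any 1 library other than OBF1 shRNA replicate 2 (edgeR adjusted p up to 0.228), which leaves 1 gene lower.

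Salt-inducible kinases and 14-3-3 proteins, which hold class IIa deacetylases in the cytoplasm, gave 6 higher and 3 lower of 11 tested. Over all tested genes 37.5% were called higher and 37.9% lower. The list had a median log2 fold change of 0.10. YWHAZ, the 14-3-3 zeta gene, rose from 503 ± 9.28 to 645 ± 18.6 CPM (SD, n = 3) and YWHAB from 626 ± 10.1 to 714 ± 7.65 CPM (SD, n = 3). SFN, the 14-3-3 sigma gene, rose from 0.426 to 1.68 CPM, and STK11, the LKB1 kinase that activates salt-inducible kinases, from 53.6 to 64.0 CPM. SIK2 fell by 0.20 on the log2 scale. YWHAG and YWHAQ did not pass. With library sizes alone YWHAG and YWHAQ were called lower and the calls of YWHAE and YWHAH, the last named with its values known, were lost, which gives 4 higher and 5 lower. SIK1, chosen for mention in the same way, was called lower (edgeR adjusted p = 0.0443) with overlapping groups. That call did not hold without control replicate 1, control replicate 2, OBF1 shRNA replicate 1 or OBF1 shRNA replicate 2 (edgeR adjusted p from 0.110 to 0.144), nor with DESeq2 (0.131).

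**Figure D5:**
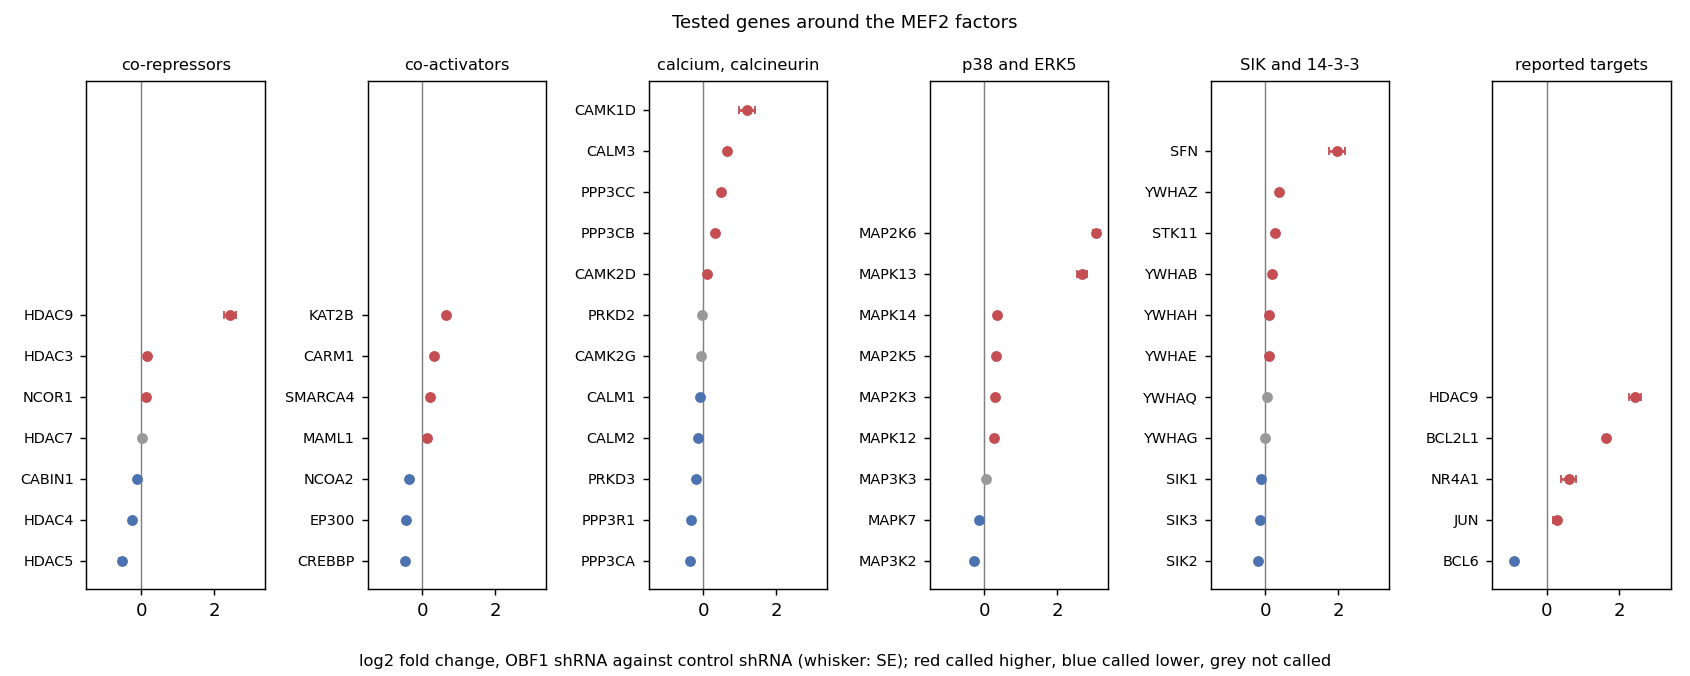
Log2 fold change of OBF1 shRNA against control shRNA (x axis, whiskers for SE) for the tested members of 6 lists around the MEF2 factors, in red where called higher, blue where called lower and grey where not called. MAP2K6, MAPK13 and HDAC9 stand furthest to the right at 3.07, 2.68 and 2.43, and BCL6 furthest to the left at -0.90.

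Genes reported as MEF2 targets in lymphocytes or early responses gave 4 higher and 1 lower of 5 tested, beside 37.5% and 37.9% over all tested genes, with a median log2 fold change of 0.60. With library sizes alone JUN lost its call (edgeR adjusted p = 0.164), which gives 3 higher and 1 lower. BCL6, the germinal centre repressor that MEF2B activates, was the 1 that fell, with 260, 254 and 269 CPM in control and 140, 140 and 139 CPM in OBF1 shRNA libraries. BCL6 went down by 0.90 and MEF2B by 0.82 on the log2 scale in the same libraries, and a link between them was not tested. BCL2L1, the survival gene BCL-XL linked to MEF2C in B cells, rose from 104 ± 3.26 to 320 ± 7.55 CPM (SD, n = 3). HDAC9, given above, is also on this list. The orphan receptor gene NR4A1 was called higher at 1.37 and 2.11 CPM and JUN at 5.51 and 6.63 CPM. NR4A1 lost its call without OBF1 shRNA replicate 1 (edgeR adjusted p = 0.0776) and JUN, whose groups overlapped, without control replicate 2, control replicate 3, OBF1 shRNA replicate 2 or OBF1 shRNA replicate 3 (edgeR adjusted p from 0.0511 to 0.151). KLF2, with 0 counts in all 6 libraries, was not detectable at this depth, where 3 counts correspond to between 0.0893 and 0.106 CPM per library. KLF4 and CCND2, with at most 4 counts in any library, did not pass the filter. The 7 muscle genes that MEF2 factors drive with myogenic partners, among them MYOG, CKM and DES, were not tested and summed to at most 0.576 CPM per library.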

How the data were processed

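Poly(A) RNA of 3 control shRNA and 3 OBF1 shRNA libraries of Raji cells was sequenced with a stranded kit, per the labels' protocols. The authors deposited raw read counts per gene in 1 table, with another column, headed width, taken here as gene length in bases. The submitters' processing notes list hg19 and mm9; the aligner, the counter, its annotation and its strand setting were not given in the sources used here. All 6 count columns were used and 0 were left out.

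Numeric gene identifiers were matched to symbols in a RefSeq table (GRCh38.p14), which named 23308 of 23459 rows; only promoter windows of that build are given coordinates. Rows without a symbol held 0.116% to 0.138% of counts and stayed in the test. Counts were fitted in edgeR 4.0.16 (R 4.3.3; filterByExpr with min.count 10 and min.total.count 15, TMM, glmQLFTest, no covariate), with Benjamini-Hochberg adjustment over 12010 genes at 0.05. The standard error is the log2 fold change divided by the square root of F. Shares, ratios and totals were compared over libraries by exact permutation tests (scipy 1.17.1). On counts simulated for this comparison, with 11820 genes tested, recovery was 87.8% for a 1.25-fold change, also 87.8% for 1.5-fold, 98.0% for 2-fold and 100% for 4-fold. Of the simulated calls 4.66% were unchanged genes. Far fewer genes were changed there than were called in the data.

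The family members and gene lists were chosen with earlier results of these data known, and 2 list genes are not reported here. Named genes were the 4 members, rows overlapping them, OBF1 and its Oct partners, SRF, per list up to 6 members with the smallest p and those that did not pass, and 3 genes of nearest profile per member. Alternatives were DESeq2 1.42.0, limma-voom (limma 3.58.1), other scalings and filters, glmTreat against 1.5-fold, the replicate block, leaving out each library, and, added after the data were seen, the readthrough row in place of MEF2B and a family total in CPM. Chi-square per degree of freedom between replicate libraries was 1.89 to 3.28; none agreed within counting noise.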

Additional observations from a re-analysis of the deposited data

How the results depend on the processing

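MEF2B, MEF2C, MEF2D and BORCS8-MEF2B kept their direction and call in all 56 recomputed values of the alternatives other than glmTreat. Of these, the 14 values of BORCS8-MEF2B are not separate from those of MEF2B. Log2 fold changes lay between -0.93 and -0.78 for MEF2B, 0.82 and 0.95 for MEF2C, and 0.47 and 0.59 for MEF2D. Library sizes alone shifted the log2 fold changes of tested genes by a median of -0.11. The calls moved to 3476 higher and 5778 lower, from 4508 and 4550. The glmTreat test against 1.5-fold called 1967 genes, 1180 higher and 787 lower. It kept MEF2B and MEF2C, but not MEF2D (0.58) or MEF2A (-0.0778). List genes also lost calls there, among them HDAC5, CREBBP, KAT2B and YWHAZ. In the main fit, genes both called and changed at least 1.5-fold numbered 1 of 7 co-repressors and 1 of 7 co-activators. They numbered 2 of 12 calcium genes, 2 of 9 p38 and ERK5 genes, 1 of 11 SIK and 14-3-3 genes and 4 of 5 reported targets. Over all tested genes they were 2797 of 12010. MEF2A also lost its call with DESeq2 (log2 fold change -0.0739), without a low-count filter (-0.0719) and with the replicate block (-0.0777, edgeR adjusted p = 0.0692), and ranged from -0.102 to -0.0581 with 1 library left out. The replicate block left 8759 of 9058 genes called. Deviations of same-numbered libraries correlated at -0.096 to 0.004, and those of differently numbered libraries at -0.032 to 0.082. Taken from means of 3 libraries, these deviations cannot tell whether the numbers pair the samples.

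The MEF2A share turned from 2.47 to -3.13 percentage points with counts not divided by length, and was 1.48 with the readthrough row in place of MEF2B. Counts alone gave -18.0, 14.9 and 6.19 points for MEF2B, MEF2C and MEF2D. Adding the readthrough row, which may count shared reads again, gave -17.0, 9.10 and 5.17. The family total changed by -24.9 CPM per kilobase, by -33.8 with library sizes alone, and by 28.3 in CPM.

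With library sizes alone the log2 fold change turned to -0.0919 for HDAC7, -0.00721 for CAMK2D, -0.0531 for MAP3K3, -0.0130 for YWHAE, -0.0123 for YWHAH and -0.0623 for YWHAQ. HDAC7 was also -0.00243 with upper-quartile factors. With 1 library left out, PRKD2 ranged from -0.0747 to 0.00894 and CSF1R from -0.000128 to 0.662; neither was called. The members had 1926 to 5452 counts per library. Counting alone gives a coefficient of variation at or above that between replicates for MEF2A in OBF1 shRNA libraries (1.79% against 1.60%), MEF2C in control libraries (2.01% against 1.64%) and MEF2D in both groups (2.23% against 1.68% and 1.88% against 0.983%). The cause of these shifts was not tested.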
